A study of Bos taurus with 16 samples.

Results

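The 8 cows of the *FGF21* high group were divided by their own hepatic *FGF21* signal on the arrays, with 3 cows above a log2 signal of 7.5 and 5 cows below it, out of 16 cows in all. Members were chosen by that signal alone, so the level of *FGF21* on either side is a description and was not tested, and every other transcript was compared between the sides. Multiparous female Holstein cows were sampled by liver biopsy at week 1 postpartum, all on the same total mixed ration, and 1 Affymetrix whole-transcript array was hybridized per cow. From the cows of the herd that needed no medical treatment, the study had taken the 8 that expressed most *FGF21* in the liver as the *FGF21* high group and the 8 that expressed least as the *FGF21* low group. No treatment set the groups apart, so the gradient is variation between cows and no intervention on the gene. Each array gave a log2 signal, already corrected and normalized by the authors, for 20421 transcript clusters, each of them the probes summarized for 1 gene or transcript.

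FGF21 is a hormone of the fibroblast growth factor family that hepatocytes release into the blood, where it signals through FGF receptors paired with the coreceptor β-klotho. In rodents its gene is switched on in the liver by the fatty acid sensor PPARα during fasting and by the transcription factor ATF4 during amino acid shortage and stress of the endoplasmic reticulum (ER). In dairy cows hepatic *FGF21* is known to rise around calving, when milk secretion draws more energy than the cow eats and the liver takes up fatty acids mobilized from adipose tissue.

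*FGF21* lay at 8.69, 7.62 and 8.10 in the 3 cows above the threshold, which are replicates 1, 4 and 5 of the *FGF21* high group. The 5 cows below it had 6.71, 7.08, 7.08, 6.16 and 6.81, in the order of replicates 2, 3, 6, 7 and 8, and the same orders are kept wherever values are listed by cow. The mean was 8.14 ± 0.54 (SD, n = 3) above and 6.77 ± 0.38 (SD, n = 5) below, 2.58-fold apart, against 5.20 ± 0.30 (SD, n = 8) in the *FGF21* low group. The lowest cow above the threshold and the highest below it, at 7.62 and 7.08, were separated by 0.54, and the highest and lowest of the 8 cows by 5.79-fold. Every cow below the threshold still lay above the highest cow of the *FGF21* low group, which had 5.51. The gene is annotated on chromosome 18 at 55834675 to 55836133 and was read by 23 probes. The build of these coordinates is not named in the labels, the paper or the files.

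**Figure D1:**
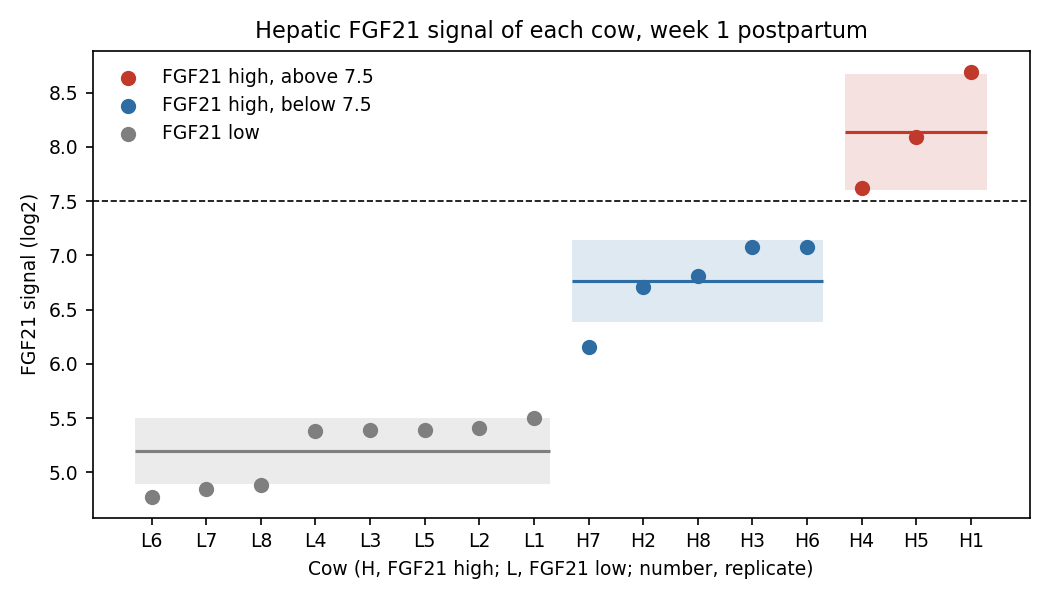
Log2 signal of *FGF21* in each of the 16 cows, ordered within the *FGF21* low group, the cows of the *FGF21* high group below 7.5 and those above it. Points are cows, lines are means, shaded bands are 1 SD and the dashed line is the threshold of 7.5; the 3 cows above it have 7.62 to 8.69 and the 5 below it 6.16 to 7.08.

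The arrays of the 8 cows were close in median and in correlation, and their SDs across transcripts ran from 1.78 to 1.88. Array medians lay between 6.25 and 6.31, and the signals of any pair of the 8 arrays correlated at r = 0.98 to 0.99 across transcripts, which are not independent replicates. Hepatocyte markers, among them albumin (*ALB*, 13.62, 13.71 and 13.63 above and 13.69, 13.65, 13.61, 13.73 and 13.65 below), differed between the sides by a median of -0.020 (-0.053 to 0.051 without 1 cow each), and 0 of 10 had a p under 0.05 without adjustment. The summed signal of that list was 15.78 to 15.93 (log2) in the cows above and 15.86 to 15.93 in those below, so liver tissue was measured on both sides. Among the other cell types, 0 of 7 sinusoidal endothelial markers, 0 of 11 Kupffer cell and macrophage markers, 0 of 8 T and NK cell markers, 0 of 6 B and plasma cell markers or 0 of 8 adipocyte, muscle and skin markers passed a limma p under 0.05 without adjustment. At that level 2 of 10 stellate cell and fibroblast markers and 1 of 7 cholangiocyte markers were higher in the cows above. Lower in them were 2 of 8 neutrophil markers and 1 of 8 red blood cell markers. Over all transcripts, 2.1% were higher and 2.14% lower at the same level. In a biopsy of mixed cells, fewer cells of a type and less RNA per cell cannot be told apart. No scan date or RNA integrity of a single cow was used here, so the part of either in the differences below was not tested. The paper reports that RNA was degraded to some extent and that this can limit the sensitivity and specificity of arrays.

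Between the 3 cows above the threshold and the 5 below it, no transcript other than *FGF21* differed at an adjusted p under 0.05 by limma, 0 of 20420 tested (0%). The smallest adjusted p was 0.061. Without adjustment, 865 transcripts had a p under 0.05, which is 4.24% of those tested and so fewer than the 1 in 20 that such a threshold passes by itself. The methods' t-test gave 810 at that level and 0 after adjustment. With a fold change over 1.2 beside a limma p under 0.05, 393 transcripts were higher (1.92%) and 404 lower (1.98%) in the cows above the threshold. The methods' t-test with the same fold gave 223 higher and 220 lower. After subtraction of each array's median the limma criterion gave 490 higher and 306 lower, and without replicate 4 it gave 469 higher and 636 lower. Sides that did not overlap at all were seen for 317 transcripts higher (1.55%) and 265 lower (1.3%) in the cows above. Leaving out replicate 3 brought 1 transcript, an NKG2D ligand 3-like gene (LOC100850276), to an adjusted p of 0.0375 by limma with a log2 difference of 1.29. It was the only pass in 8 fits that each left out 1 cow, and adjustment covered 1 fit at a time. The values that follow are therefore differences between these 8 cows that did not pass the test over all transcripts. A two-sided exact permutation test of 3 against 5 cows runs over 56 assignments and can give no p below 0.0357, which it reaches whenever the sides do not overlap. In each direction 1 of the 56 assignments separates the sides of a transcript. That is a larger share than the 1.55% higher and 1.3% lower that were seen, so separated sides alone do not set a transcript apart.

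The transcripts with the smallest p were mostly ones the annotation names only provisionally, and they were singled out after their values were seen. A vomeromodulin-like transcript on chromosome 13 (LOC101908058) had 7.28, 6.41 and 6.63 above and 4.18, 4.96, 5.07, 5.25 and 5.19 below. The sides were far from overlapping, and the difference was 1.84 with a standard error of 0.25 (limma, adjusted p = 0.061). A bile salt sulfotransferase transcript (LOC514658), of the enzyme family that adds sulfate to bile acids, had 3.67, 3.58 and 4.03 above and 4.73, 5.21, 5.09, 4.73 and 4.76 below, a difference of -1.14 with a standard error of 0.15 (limma, adjusted p = 0.061). A transcript annotated as cytochrome P450 1A4-like (LOC785403) had 3.27, 3.76 and 4.50 above and 6.16, 5.46, 5.94, 5.71 and 5.05 below, a difference of -1.82 with a standard error of 0.28 (limma, adjusted p = 0.15). All 3 cows above lay lower on these last transcripts than all 5 below. The *FGF21* low group spanned 3.56 to 6.63 on LOC785403, wider than the distance between the sides. The smallest p of all belonged to olfactory receptor 6C1 (LOC787659, 3.13, 3.05 and 2.89 above and 2.28, 2.14, 2.11, 2.10 and 2.22 below; limma, adjusted p = 0.061), whose signals are among the lowest of the array.

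Among transcripts with an established symbol, the 10 with the smallest p in each direction had sides that did not overlap, which their selection favours. *INHBE*, the liver's activin βE subunit and a known target of ATF4, had 8.59, 8.58 and 8.67 above and 7.89, 7.85, 8.23, 8.20 and 8.26 below. All 3 cows above lay within 8.58 to 8.67 and higher than every cow below, with a difference of 0.53 with a standard error of 0.13 (limma, adjusted p = 0.855, exact permutation p = 0.0357). The *FGF21* low group lay lower still, at 7.5 ± 0.29 (SD, n = 8). *SLC25A33*, a carrier of pyrimidine nucleotides into mitochondria, had 7.82, 7.66 and 8.26 above and 6.96, 7.14, 7.45, 7.02 and 7.44 below, a difference of 0.71 with a standard error of 0.16 (limma, adjusted p = 0.847), with the *FGF21* low group at 6.79 ± 0.29 (SD, n = 8). For both genes the means ran from the low group over the cows below to the cows above, and the first 2 of these sets of cows overlapped.

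*ADAMTS5*, a protease that cleaves aggrecan and versican in extracellular matrix, had 8.36, 8.07 and 8.42 above and 7.68, 7.86, 7.77, 7.45 and 7.28 below. Its cows below spread over the same range as the *FGF21* low group (7.39 to 8.10), and the difference between the sides was 0.67 with a standard error of 0.15 (limma, adjusted p = 0.748). *VIPR2*, a receptor for vasoactive intestinal peptide, had 7.47, 7.33 and 7.5 above and 6.80, 7.00, 6.77, 7.15 and 6.89 below (limma, adjusted p = 0.847). *PARD6B*, a scaffold protein of epithelial cell polarity, had 8.11, 7.97 and 7.97 above and 7.53, 7.40, 7.57, 7.48 and 7.59 below, a difference of 0.50 with a standard error of 0.10 (limma, adjusted p = 0.605). For these genes the 5 cows below and the *FGF21* low group covered like ranges and the 3 cows above had a higher mean than both. The other higher transcripts named by p were *KCTD14*, *GPR160*, *ZSWIM3* and the microRNA genes *MIR2434* and *MIR30D*, with differences of 0.76, 0.74, 0.49, 0.80 and 0.76. Mean signals of *GPR160*, *MIR2434* and *MIR30D* were in the lowest 10 percent of all transcripts.

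Lower in the cows above was *CXCR1*, a receptor for interleukin 8 that is carried mainly by neutrophils, with 5.79, 5.95 and 6.04 above and 6.52, 6.87, 6.30, 6.48 and 6.48 below. The sides were separated, with a difference of -0.60 with a standard error of 0.13 (limma, adjusted p = 0.748, exact permutation p = 0.0357), and a second probe set for the gene at a lower signal showed a difference of 0.0070. Of the 8 neutrophil markers measured, *CXCR1* and *CSF3R*, the receptor for granulocyte colony-stimulating factor (5.65, 5.74 and 5.99 above and 6.34, 6.73, 6.23, 5.95 and 6.16 below), were lower at a p under 0.05 without adjustment and none was higher. The summed signal of the neutrophil list was 8.80 to 8.88 (log2) in the cows above and 8.91 to 9.28 in those below. Its sides did not overlap, but *CXCR1* and *CSF3R* are part of that sum, so it is not separate from them. Of the 8 members, 5 had a negative and 3 a positive difference, with *S100A8* at 0.13 and *S100A12* at -0.10. The part of neutrophils in the result for *CXCR1* was not tested beyond these values.

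*MAP3K13*, a kinase upstream of JNK signalling, had 9.22, 8.83 and 9.22 above and 9.75, 9.74, 9.82, 9.24 and 9.82 below. Replicate 7 lay beside the cows above and apart from the other cows below, and the difference was -0.59 with a standard error of 0.16 (limma, adjusted p = 0.972). *RALGPS2*, an exchange factor for the small GTPase Ral, had 7.69, 7.39 and 7.97 above and 8.20, 8.48, 8.33, 8.12 and 8.04 below (limma, adjusted p = 0.972), and *SLC25A48*, a member of the mitochondrial carrier family, had 5.81, 5.61 and 5.64 above and 6.15, 6.16, 6.4, 6.29 and 6.09 below (limma, adjusted p = 0.67). The cows above were below all others of the group on each. The rest of the lower transcripts named by p were *HRASLS* (now *PLAAT1*), *FIGN*, *FOXS1*, *KCNK12*, *TSPAN10* and the microRNA gene *MIR103-2*, with differences of -0.50, -0.41, -0.43, -0.51, -0.57 and -0.73. Of the 37 transcripts named by rule from the split and the slope, 19 had a mean signal below the median transcript.

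**Figure D2:**
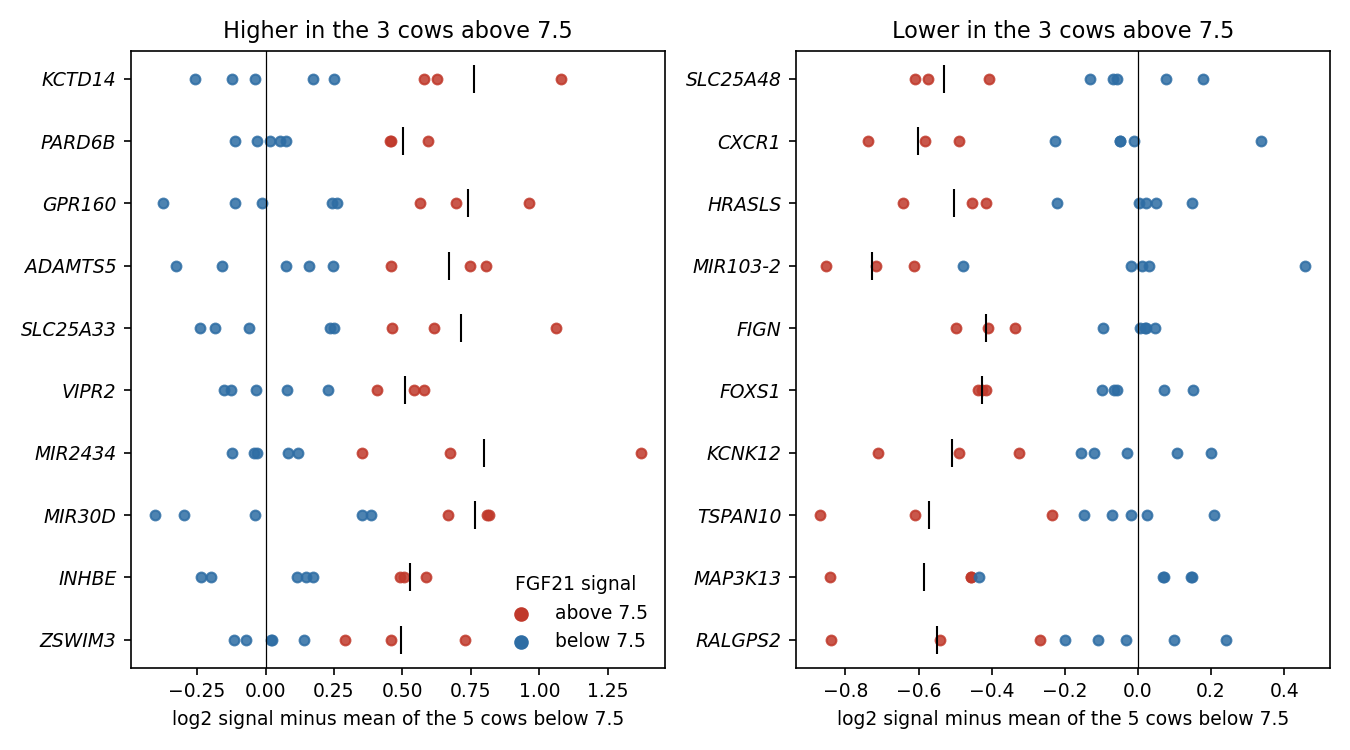
Log2 signal of each of the 8 cows of the *FGF21* high group minus the mean of the 5 cows below 7.5, for the 10 transcripts with the smallest p in each direction. Red points are the 3 cows above 7.5, blue points the 5 below and the black mark the log2 difference of the sides; red and blue do not overlap for any of these 20 transcripts, and none passed the adjusted test.

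Among named genes with a p under 0.05 without adjustment, the means of the sides lay farthest apart for *SAA3*, a serum amyloid A gene of the acute phase response that is also expressed outside the liver. It had 10.31, 10.56 and 11.21 above and 7.13, 9.01, 9.11, 8.13 and 10.16 below. Replicate 8, below the threshold, came close to the lowest cow above, while replicate 2 lay far under it. The means were 3.95-fold apart, with a log2 difference of 1.98 with a standard error of 0.51 (limma, adjusted p = 0.96, exact permutation p = 0.0357). The *FGF21* low group spanned 6.55 to 9.94. *CACNA2D1*, an auxiliary subunit of voltage-gated calcium channels, had 7.03, 6.54 and 7.11 above and 5.95, 5.67, 6.85, 5.62 and 5.62 below, so that replicate 6 overlapped the cows above. *UGT1A6*, a conjugating enzyme for phenolic compounds, had 10.09, 9.66 and 10.41 above and 9.81, 9.57, 7.65, 8.90 and 9.38 below, and its difference of 0.99 with a standard error of 0.39 (limma, adjusted p = 1) was 0.64 without replicate 6, the lowest cow. *TMED6*, a member of a family of vesicle cargo proteins, differed by 0.94 with a standard error of 0.26 with overlapping sides. On the lower side, *DDO*, which oxidizes D-aspartate, had 5.31, 5.65 and 7.13 above and 7.11, 7.08, 7.43, 6.94 and 7.84 below, so that replicate 5 was as high as the cows below. *EGR1*, an immediate early transcription factor, had 5.76, 6.44 and 6.39 above and 7.01, 8.25, 6.88, 6.75 and 6.73 below. Its cows above were all lower than those below, where replicate 3 stood apart at 8.25, and the difference was -0.93 with a standard error of 0.31 (limma, adjusted p = 1, exact permutation p = 0.0357). *MIR2284L* was the other transcript of this kind, at -0.81 with a standard error of 0.24 and a signal near the bottom of the array.

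Some 580 genes of 39 lists, 29 of pathways and 10 of cell markers, were then read off the same fit. None passed the adjusted test. Over all transcripts, a p under 0.05 without adjustment was met by 429 higher (2.1%) and 436 lower (2.14%), with a median difference of -0.0047, and over the list genes by 29 higher and 20 lower (8.45% in both directions). The lists were composed with results of these cows known, so this share describes the lists and tests nothing.

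For the pathway of FGF21 itself, the receptors and the coreceptor hardly differed. β-klotho (*KLB*) had 8.24, 8.60 and 9.21 above and 8.52, 8.66, 8.52, 8.84 and 9.02 below, a difference of -0.032 with a standard error of 0.20, and *FGFR1* and *FGFR4* differed by -0.081 and 0.028. Of 6 measured genes, 0 had a p under 0.05 without adjustment, with differences from -0.081 to 0.23.

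Of the list for ATF4 and the integrated stress response, 4 of 30 measured genes were higher and 0 lower at a p under 0.05 without adjustment. Besides *INHBE* these were *ASNS*, asparagine synthetase, with 7.42, 7.39 and 7.75 above and 6.83, 7.08, 7.52, 7.11 and 6.87 below; *GPT2*, the mitochondrial alanine aminotransferase, with 7.01, 7.07 and 7.02 above and 6.57, 6.70, 6.81, 6.85 and 6.89 below; and *DDIT4*, an inhibitor of mTORC1, with 6.49, 6.97 and 7.16 above and 6.42, 6.73, 6.44, 6.30 and 6.59 below. Of these, *INHBE* and *GPT2* had sides that did not overlap, and *GPT2* in the *FGF21* low group was as high as in the cows above, at 7.13 ± 0.39 (SD, n = 8). *ATF4* itself (0.076), *TRIB3* (0.22), *DDIT3* (0.038) and *CHAC1* (0.15) did not pass. The median of the 30 members was 0.045, and 24 had a positive difference, against 9922 of 20420 over all transcripts. Leaving out 1 cow at a time gave medians from 0.041 without replicate 2 to 0.10 without replicate 1. Without replicate 5 it was 0.083 and without replicate 6 it was 0.070.

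ER chaperones, which fold proteins in the ER and are induced by the unfolded protein response, made up a list whose median turned on single cows. Of 27 measured genes, 0 had a p under 0.05 without adjustment between the sides, and their median was -0.044. Fitted against the *FGF21* signal, 1 of the 27 had a positive slope and 0 a negative one at a p under 0.05, with a median slope of 0.076. *HSPA5*, the main chaperone of the ER, had 12.10, 10.87 and 9.90 above and 11.20, 11.44, 11.56, 11.08 and 11.82 below. Replicate 1, with the highest *FGF21* of all, was the highest cow and replicate 5, with the next highest *FGF21*, the lowest, so the 3 cows above enclosed all 5 cows below. Without replicate 1 the median of the list was -0.24, without replicate 4 it was 0.011 and without replicate 5 it was 0.091. *HSP90B1*, another ER chaperone, had 12.26, 11.67 and 11.06 above and 11.69, 12.15, 12.38, 11.70 and 12.12 below. Replicate 5 was again the lowest cow, while the highest was replicate 6, below the threshold, followed by replicate 1.

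PPARα targets and enzymes of fatty acid oxidation differed little between the sides. In all, 0 of 28 measured genes were higher and 1 lower at a p under 0.05 without adjustment, and that was *PDK4*, which restrains pyruvate oxidation, with 8.48, 7.83 and 8.11 above and 9.02, 8.45, 8.90, 8.57 and 8.25 below and a difference of -0.50 with a standard error of 0.19 (limma, adjusted p = 1). *CPT1A*, the entry step of fatty acids into mitochondria, differed by -0.0049, *CPT2* by 0.22 and *PPARA* by 0.16. The *FGF21* low group lay above both sides on *PDK4*, at 9.41 ± 0.19 (SD, n = 8).

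In the ketone body list, 1 of 7 measured genes were higher and 0 lower at a p under 0.05 without adjustment. It was *SLC16A6*, the transporter that lets ketone bodies out of the hepatocyte in zebrafish, with 8.13, 8.03 and 8.22 above and 7.13, 7.17, 7.70, 7.46 and 7.93 below. All cows above were higher than all cows below, although replicate 8 came close, and the difference was 0.65 with a standard error of 0.18 (limma, adjusted p = 0.972, exact permutation p = 0.0357). The *FGF21* low group ran from 6.89 to 8.67 and so covered both sides.

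Gluconeogenesis and the tricarboxylic acid cycle held 17 and 21 measured genes, and 0 of either had a p under 0.05. Differences ran from -0.70 to 0.25 in the first list and from -0.052 to 0.19 in the second. The medians were 0.047 and 0.042, and without replicate 1 they were -0.041 and -0.036. *PCK1*, which commits carbon to glucose, had 12.02, 12.22 and 12.12 above and 11.92, 12.03, 11.94, 11.99 and 11.97 below, *SLC2A2*, the glucose transporter of hepatocytes, differed by 0.18 and *CS*, citrate synthase, by 0.19, each with overlapping sides. In the urea cycle list, again with 0 of 9 at that level, *CPS1*, the entry enzyme, was slightly lower in every cow above, with 12.45, 12.34 and 12.42 above and 12.51, 12.50, 12.59, 12.59 and 12.58 below and a difference of -0.15 with a standard error of 0.097 (limma, adjusted p = 1).

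Within fatty acid and triglyceride synthesis, 4 of 20 measured genes were higher and 1 lower at a p under 0.05 without adjustment. *THRSP*, a protein that promotes lipogenesis, had 4.97, 6.21 and 6.75 above and 5.16, 5.16, 4.87, 4.73 and 5.16 below. Replicates 4 and 5 were higher than all others and replicate 1 was among the cows below, and the difference was 0.96 with a standard error of 0.30 (limma, adjusted p = 1). *ACACA*, which makes malonyl-CoA, had 8.00, 8.31 and 8.69 above and 7.63, 8.42, 7.89, 7.76 and 7.74 below, and replicate 3 below the threshold was higher than replicates 1 and 4 above it. *AGPAT2*, an acyltransferase of triglyceride synthesis, had 8.85, 8.72 and 8.84 above and 8.70, 8.12, 8.07, 8.60 and 8.51 below and *LPIN2*, a phosphatidate phosphatase, 8.68, 8.64 and 8.82 above and 8.53, 8.41, 8.53, 8.52 and 8.46 below; their sides did not overlap. In the other direction, *FADS2*, the desaturase that starts the synthesis of long polyunsaturated fatty acids, had 9.48, 10.62 and 11.57 above and 12.08, 11.78, 10.95, 11.27 and 11.05 below, with replicate 1 lowest and replicate 5 within the range of the cows below. *FASN*, fatty acid synthase, had 6.75, 7.91 and 7.91 above and 7.43, 7.92, 6.83, 6.88 and 7.28 below, and *SCD*, the stearoyl-CoA desaturase, differed by 0.020. For cholesterol synthesis 0 of 21 had a p under 0.05 without adjustment, and 17 of 21 differences were positive. The median was 0.060, and it was -0.032 without replicate 5 and -0.00081 without replicate 6, so its direction rested on single cows.

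**Figure D3:**
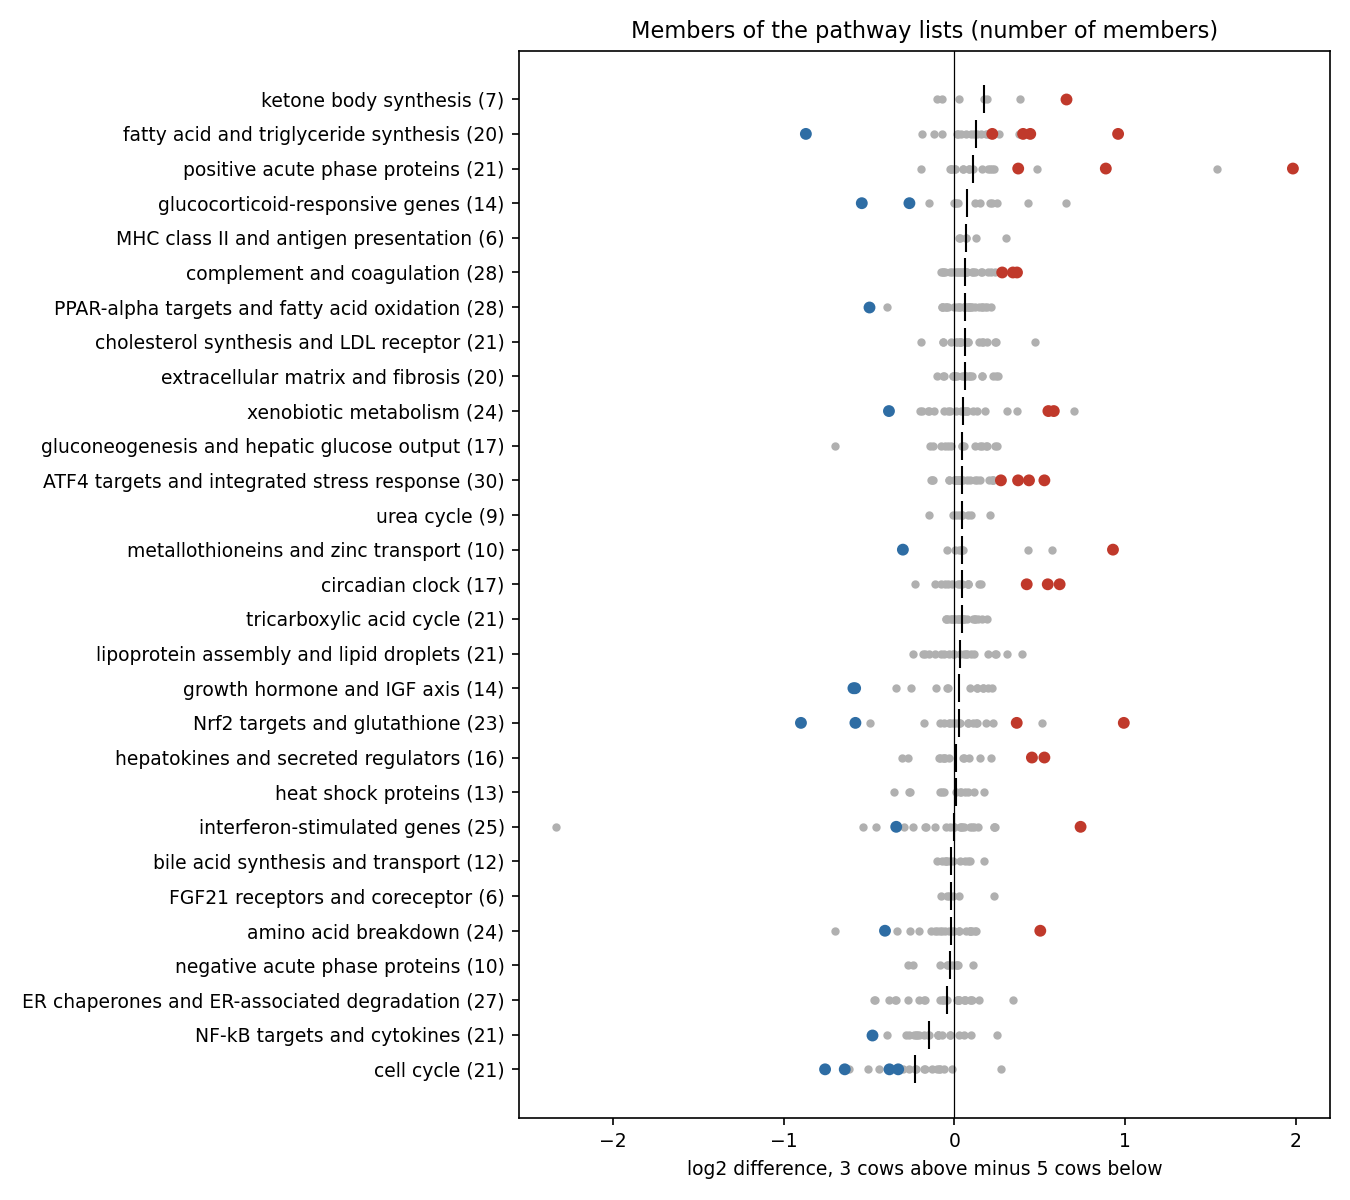
Log2 difference (3 cows above 7.5 minus 5 cows below) of every measured member of the 29 pathway lists, ordered by the list median (black mark). Grey points had a limma p of 0.05 or more and coloured points less, without adjustment, red higher and blue lower; the lists with the lowest and highest medians are cell cycle, at -0.23, and ketone body synthesis, at 0.17, which is 0.087 without replicate 3.

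Of the positive acute phase proteins, which the liver makes in greater amount during inflammation, 3 of 21 measured genes were higher and 0 lower at a p under 0.05 without adjustment. Besides *SAA3* these were *HPX*, which binds heme, with 12.78, 12.93 and 12.98 above and 12.41, 12.78, 12.55, 12.20 and 12.68 below, and *LCN2*, which binds bacterial iron carriers, with 7.32, 7.46 and 8.61 above and 6.34, 7.38, 7.48, 6.31 and 7.04 below. *HP*, haptoglobin, the main acute phase protein of cattle, had 12.64, 12.54 and 12.60 above and 7.62, 12.27, 12.23, 10.39 and 12.75 below. All 3 cows above were near 12.6, and so was replicate 8, while replicates 2 and 7 lay as low as 7.62 and 10.39, and the difference of 1.54 with a standard error of 0.91 did not pass (limma, adjusted p = 1). *HP* ran from 6.74 to 12.45 in the *FGF21* low group. Of the 21 members, 17 had a positive difference. The median was 0.11, and it ran from 0.040 without replicate 4 and 0.059 without replicate 2 to 0.19 without replicate 6, 0.20 without replicate 8, 0.21 without replicate 1 and 0.22 without replicate 5. *CRP* (0.16), *LBP* (-0.024) and *SAA2* (0.21) differed with overlapping sides. Negative acute phase proteins had 0 of 10 at that level, *AHSG* (-0.27) and *APOA1* (-0.24) differing most.

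The list of NF-κB targets and cytokines came next. In all, 0 of 21 measured genes were higher and 1 lower at a p under 0.05 without adjustment, which was *PTGS2*, cyclooxygenase 2, with 4.58, 4.81 and 4.99 above and 5.31, 5.49, 5.44, 5.19 and 4.94 below. Of the 21 members, 17 had a negative difference, among them *IL1RN* (-0.40) and *NFKBIA* (-0.27), a member that NF-κB itself induces. The median was -0.15, and it was -0.077 without replicate 3 and -0.089 without replicate 1. The 1 member whose sides did not overlap was *NFKB1*, a subunit of NF-κB, and it was higher in the cows above, with a difference of 0.097 with a standard error of 0.11. In the complement and coagulation list 3 of 28 measured genes were higher and 0 lower at a p under 0.05 without adjustment, namely *C4A* (12.06, 12.03 and 11.87 above and 11.47, 11.83, 11.65, 11.42 and 11.86 below), *F7* (6.97, 7.23 and 7.04 above and 6.76, 6.84, 6.92, 6.93 and 6.56 below) and *C7* (7.63, 8.19 and 8.24 above and 7.68, 7.80, 7.34, 7.79 and 7.67 below). The sides were separated for *C4A* and *F7*.

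**Figure D4:**
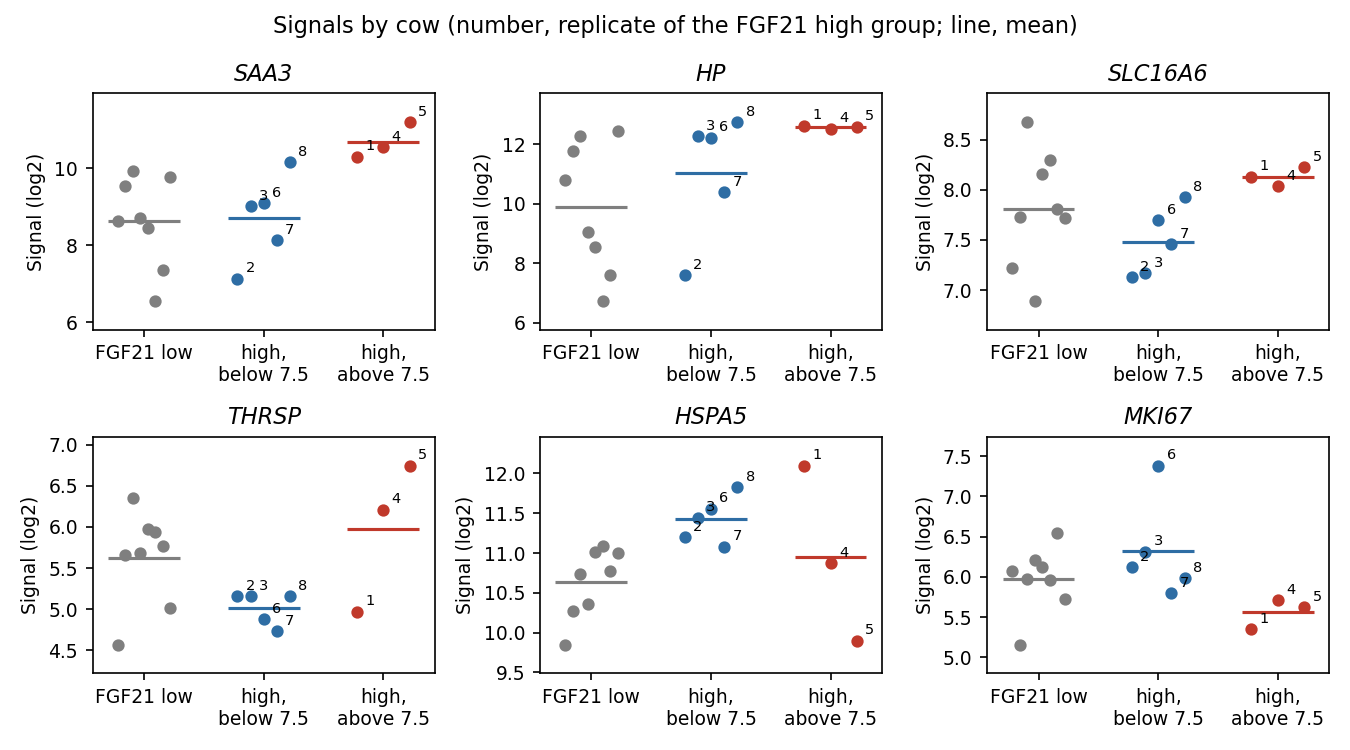
Log2 signal of *SAA3*, *HP*, *SLC16A6*, *THRSP*, *HSPA5* and *MKI67* in the *FGF21* low group (grey), in the *FGF21* high group below 7.5 (blue) and above it (red), with replicate numbers and group means as lines. *SAA3* and *SLC16A6* are separated between blue and red by a narrow gap, and for *HSPA5* replicates 1 and 5 are the highest and lowest of the 8 cows at 12.10 and 9.90.

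Cell cycle genes had the lowest median of the pathway lists, at -0.23, with 20 of 21 members at a negative difference. In all, 0 of 21 measured genes were higher and 4 lower at a p under 0.05 without adjustment. *MKI67*, a protein of dividing cells, had 5.35, 5.71 and 5.62 above and 6.12, 6.31, 7.38, 5.79 and 5.99 below, so the sides did not overlap and replicate 6 stood highest. *CCNB2*, a mitotic cyclin, had 4.60, 5.25 and 4.49 above and 5.67, 5.12, 5.99, 5.21 and 5.13 below, *BUB1*, a kinase of the spindle checkpoint, 4.50, 4.88 and 4.61 above and 5.10, 5.11, 5.10, 5.09 and 4.81 below, and *TYMS*, thymidylate synthase, 6.66, 6.72 and 6.52 above and 6.94, 7.03, 7.33, 6.71 and 6.82 below. Without replicate 6 the median was -0.17, and without replicate 4 it was -0.34. *CDKN1A*, an inhibitor of the cycle, was the exception, at 0.27 with a standard error of 0.16. Mean signals of the 21 members ran from 4.59 to 8.49, where the median transcript of the array had 6.28. All values of *CCNB2* and *BUB1* lay below 6.28.

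In the list of clock genes, 3 of 17 measured genes were higher and 0 lower at a p under 0.05 without adjustment. *BHLHE40*, a repressor of the clock, had 8.43, 8.98 and 9.56 above and 8.41, 8.13, 8.53, 8.13 and 8.68 below, its paralogue *BHLHE41* 7.5, 7.93 and 7.82 above and 7.53, 6.85, 7.08, 7.20 and 7.35 below, and *NR1D1*, the receptor REV-ERBα, 8.13, 7.87 and 7.78 above and 7.04, 7.63, 7.55, 7.67 and 7.62 below. Of these 3 *NR1D1* had separated sides. So did *HLF*, a transcription factor under control of the clock, which was lower in every cow above but had no p under 0.05, with 8.60, 8.54 and 8.68 above and 9.16, 8.70, 8.85, 8.77 and 8.70 below. The hour at which each cow was sampled was not used here. In the growth hormone and IGF list *SOCS2*, a target of growth hormone, had 7.02, 7.00 and 7.62 above and 7.93, 8.23, 7.25, 8.02 and 7.54 below, and *IGFBP2*, which binds IGF, had 11.41, 11.93 and 10.58 above and 11.60, 11.96, 11.87, 12.20 and 11.88 below, both lower at a p under 0.05 without adjustment. *IGF1* was widely spread, with 7.59, 7.84 and 9.60 above and 8.61, 7.73, 8.29, 8.15 and 8.09 below, and replicate 5 was the highest of the 8. Among other secreted products of the liver *INHBC*, the activin βC subunit, had 8.18, 8.66 and 8.69 above and 7.77, 7.91, 8.32, 8.17 and 8.12 below, close in pattern to *INHBE* but with overlapping sides, and *GDF15* differed by -0.031.

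For the detoxifying enzymes, 2 of 24 measured genes were higher and 1 lower at a p under 0.05 without adjustment. *AHR*, the receptor for dioxins and other aromatic compounds, had 8.95, 9.36 and 9.07 above and 9.56, 9.34, 9.49, 9.66 and 9.49 below, a difference of -0.38 with a standard error of 0.12 (limma, adjusted p = 1). Its target *CYP1A1* had 10.38, 11.09 and 10.58 above and 11.30, 10.70, 11.04, 11.31 and 10.98 below, a difference of -0.38 with a standard error of 0.18 with overlapping sides, beside the lower values of the cytochrome P450 1A4-like transcript. Probe sets for closely related enzymes of this kind can share target sequence. *CYP4F2*, a fatty acid hydroxylase, was higher, with 9.29, 8.91 and 9.29 above and 8.37, 8.34, 8.65, 8.96 and 8.60 below, as was the transcript annotated as *CYP3A4*, with 8.07, 8.35 and 9.18 above and 7.82, 8.00, 8.37, 7.93 and 7.79 below. In the Nrf2 and glutathione list *GCLC*, which makes the precursor of glutathione, had 8.83, 8.87 and 8.82 above and 8.83, 8.44, 8.17, 8.60 and 8.33 below, and *GSTM2* and *GSTM1*, glutathione transferases of the mu class, went the other way. *GSTM2* had 9.48, 10.04 and 9.02 above and 10.32, 9.77, 10.66, 10.92 and 10.40 below, a difference of -0.90 with a standard error of 0.26 (limma, adjusted p = 1), and the *FGF21* low group averaged more than either side, at 10.88 ± 0.44 (SD, n = 8). Amino acid breakdown held *GLDC*, of the glycine cleavage system, with 9.17, 9.42 and 9.42 above and 9.04, 8.42, 8.86, 8.82 and 9.04 below, and *TDO2*, which opens the ring of tryptophan, with 9.72, 10.01 and 10.01 above and 10.44, 10.52, 10.52, 10.24 and 9.89 below. In the list of metallothioneins and zinc transport, 1 of 10 measured genes was higher and 1 lower at a p under 0.05 without adjustment. Differences ran from -0.30 to 0.93, with a median of 0.043. *MT1E*, a metallothionein, had 11.25, 12.02 and 11.77 above and 10.03, 9.71, 11.40, 11.14 and 11.48 below, with replicates 2 and 3 lowest.

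In further lists only a few genes had a p under 0.05 without adjustment. Stellate cell markers included *PDGFRB* (7.09, 7.03 and 7.20 above and 6.73, 6.61, 6.73, 7.00 and 6.71 below) and *RGS5* (6.08, 6.18 and 6.56 above and 5.69, 5.91, 6.13, 5.71 and 5.92 below), both of pericyte-like cells, while *COL1A1* and *COL3A1* differed by 0.16 and 0.23, and the summed signal of the list was 10.70 to 11.27 (log2) in the cows above and 10.69 to 10.94 in those below. Of the cholangiocyte markers *AQP1*, a water channel of bile duct and endothelial cells, was higher by 0.37, and the summed signal of that list was 9.22 to 9.29 (log2) in the cows above and 8.82 to 9.39 in those below. Of the red blood cell markers *EPB42*, a protein of the erythrocyte membrane skeleton, was lower, at -0.29, and the summed signal was 7.95 to 8.32 (log2) in the cows above and 8.01 to 8.31 in those below. The part of these cells in other differences was not tested. Among interferon-stimulated genes, 1 of 25 measured genes were higher and 1 lower at a p under 0.05 without adjustment, namely *IFI27* (8.01, 7.65 and 9.18 above and 7.00, 7.92, 8.19, 7.40 and 7.17 below) and *IFIT3* (5.78, 5.39 and 5.61 above and 5.92, 5.94, 6.24, 5.77 and 5.79 below), both with overlapping sides. *OAS1X*, of the oligoadenylate synthetase family, did not pass, with 4.20, 4.66 and 4.20 above and 5.22, 4.13, 10.76, 4.33 and 8.99 below. Replicates 6 and 8 below the threshold were far over the rest of the group, and the difference was -2.33, or -1.31 without replicate 6.

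The threshold was then set aside and each transcript was fitted against the *FGF21* signal itself over the 8 cows. No slope passed an adjusted p under 0.05 by limma, the smallest being 0.553, and without adjustment 512 were positive (2.51%) and 848 negative (4.15%) at a p under 0.05. After subtraction of the array medians these counts were 754 and 605, and with the running number of the labels as a covariate they were 536 and 575. Without replicate 7 the negative count was 521. The excess of negative slopes therefore depended on the fit, and the part of running order in it was not tested further. A slope is given as the log2 change per doubling of *FGF21*. Among the positive slopes with the smallest p, *CTSC*, the lysosomal protease cathepsin C, had 9.37, 9.24 and 9.84 above and 8.60, 8.96, 8.79, 7.68 and 8.82 below. The lowest cow in *FGF21*, replicate 7, was lowest and the 3 cows above were highest, with a slope of 0.68 with a standard error of 0.13 (limma, adjusted p = 0.553). *ZFYVE21*, an endosomal protein, had 7.94, 7.47 and 7.69 above and 7.19, 7.41, 7.42, 7.03 and 7.17 below and a slope of 0.36 with a standard error of 0.061 (limma, adjusted p = 0.553). *GPR160* and *ADAMTS5* followed at 0.50 and 0.45, and *IFNB1*, interferon β, at 0.41 with signals near the bottom of the array. A second probe set for *IFNB1* had a slope of -0.0077. By list, 3 or more positive slopes at a p under 0.05 were seen for the positive acute phase proteins (4 of 21, none negative), the interferon-stimulated genes (4 of 25, none negative) and the ATF4 list (3 of 30, none negative). The 4 interferon-stimulated genes were *IFI27*, *OAS1Y*, *RSAD2* and *USP18*, with slopes of 0.53, 0.26, 0.20 and 0.24. Negative slopes numbered 3 or more for cell cycle genes (3 of 21, none positive) and detoxifying enzymes (3 of 24, with 1 positive).

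Negative slopes were led by *GJA1*, the gap junction protein connexin 43, with 5.48, 5.66 and 5.72 above and 6.11, 5.94, 5.88, 6.39 and 6.07 below. Replicate 7, lowest in *FGF21*, was the highest cow and replicate 1, highest in *FGF21*, the lowest, with a slope of -0.34 with a standard error of 0.065 (limma, adjusted p = 0.553). *CA8*, a protein related to carbonic anhydrases, had 5.15, 6.01 and 5.33 above and 6.0, 5.75, 5.74, 6.18 and 5.92 below and a slope of -0.39 with a standard error of 0.082. *AHR* had a slope of -0.29 with a standard error of 0.061, *CYP1A1* of -0.35 with a standard error of 0.086, *ZFP92* of -0.39 with a standard error of 0.083 and *GSTM2* of -0.64 with a standard error of 0.14 (limma, adjusted p = 0.553). Replicates 1 and 7 lie at the ends of the gradient. Without replicate 1, *CTSC* reached an adjusted p of 0.0428 with a slope of 1.01, and so did *A2M*, a protease inhibitor of plasma, with 1.09 where its slope over all 8 cows was -0.14. Without replicate 7, LOC101908058 reached an adjusted p of 0.0483 with a slope of 1.44. These passes were picked from fits that left out each of the 8 cows in turn. Adjustment covered 1 fit at a time, so they are descriptions.

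**Figure D5:**
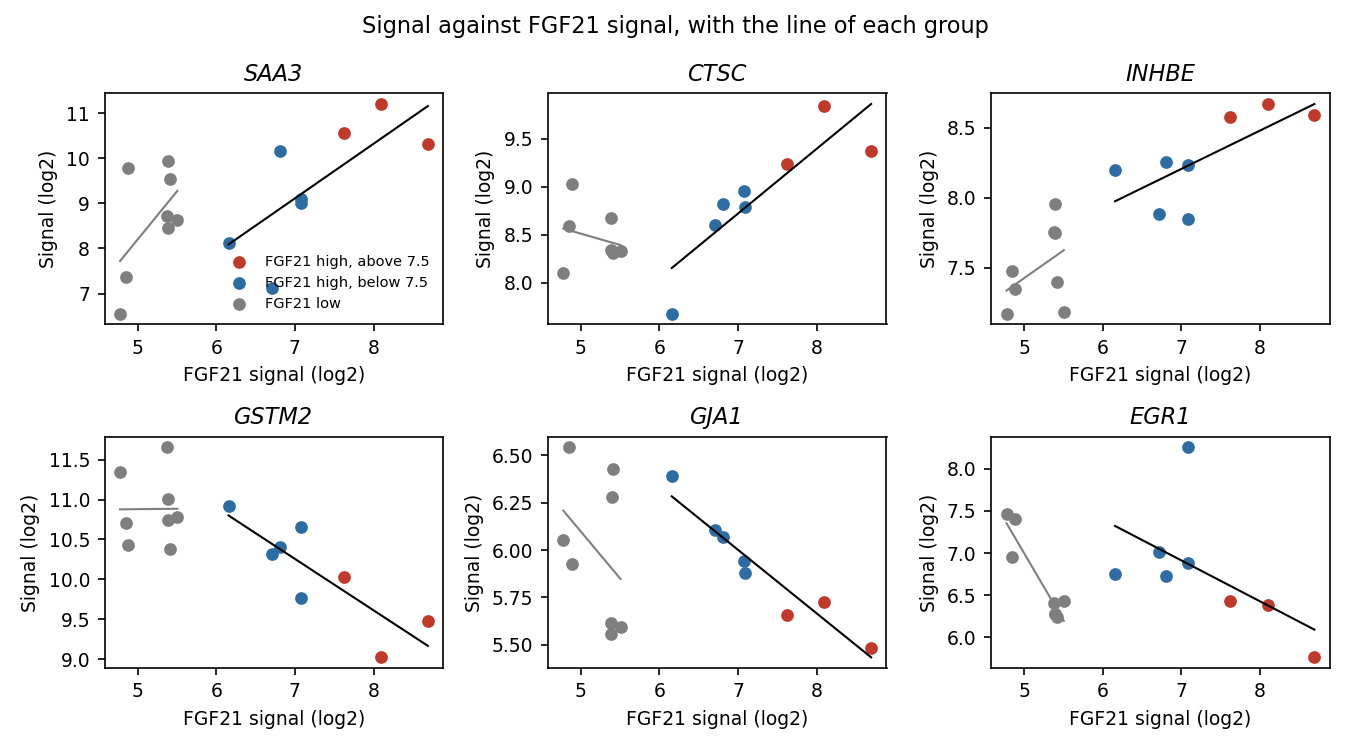
Log2 signal of *SAA3*, *CTSC*, *INHBE*, *GSTM2*, *GJA1* and *EGR1* against the log2 signal of *FGF21* in the 16 cows. Within the *FGF21* high group, red points lie above and blue points below 7.5, and grey points are the *FGF21* low group, with the least-squares line of each group; the slope over the 8 cows of the *FGF21* high group is 1.21 for *SAA3* and -0.64 for *GSTM2*.

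The cows of the *FGF21* low group took no part in the split, and they allowed the same slope to be measured apart from it. Their *FGF21* signals lay in 3 cows at 4.78 to 4.89 and 5 cows at 5.38 to 5.51. A slope there rests on the step between these sets. The 3 cows also had the last running numbers in the labels, 29 to 31, against 7 to 25 in the 5. A slope in this group therefore cannot be told apart from running order, and running number was not fitted here. No transcript passed the adjusted test, the smallest adjusted p being 0.415, and 654 (3.2%) had a p under 0.05 without adjustment. Of the 37 named transcripts, *SAA3* and *EGR1* were among them, with slopes of 2.14 and -1.59, of the same sign as in the *FGF21* high group (1.21 and -0.49). *INHBE* had 0.40 against 0.27, *CTSC* -0.24 against 0.68, *GJA1* -0.50 against -0.34, and *GSTM2* 0.010 against -0.64. *BHLHE40*, by contrast, had -1.58 in the low group and 0.30 in the high group, while *NR1D1* had 1.31 and 0.26. The difference of the slopes itself was tested by an interaction term over all 16 cows, and 0 transcripts passed an adjusted p under 0.05 by limma, with 618 (3.03%) under 0.05 without adjustment and a smallest adjusted p of 1. Slopes that look unlike in the 2 groups were therefore not shown to differ.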

How the data were processed

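The authors' service provider processed the arrays with RMA in Affymetrix Expression Console 1.4, and what was deposited is 1 log2 signal per transcript cluster and cow. The deposited sheet of these signals is labelled SST RMA, and the part of that processing in the size of the fold changes was not tested. The same log2 values were also deposited rounded, and differ by at most 0.005. The deposited sheet's columns of group means, fold changes and p-values were not used. Arrays have no read depth, and the number of cows limits the precision.

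Groups came from the sample labels. Sides were set by the *FGF21* signal, and *FGF21* was left out of all fits. No filter was applied. Sides and slopes were fitted with limma 3.58.1 (lmFit, eBayes) in R 4.3.3, with Benjamini-Hochberg adjustment over 20420 clusters, after a check on simulated data. Exact permutation tests were two-sided. Python 3.11.15 did the rest. Named were the 10 transcripts in each direction with the smallest p above 1.2-fold, the 5 with the largest fold at p under 0.05, the 5 with the smallest slope p, and members of lists, provisional LOC symbols aside. A gene with several clusters was read in lists from the one with the highest mean signal, and 27 of 608 list genes were not matched here. A total of 14673 clusters matched the reference table (ARS-UCD2.0), used for names only. Members and lists were chosen with earlier results of these data known. The alternatives were other tests, array weights, all 16 cows, the rounded table, renewed quantile normalization, median subtraction, a signal filter, the running number as covariate, no fold threshold and leaving out each cow.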

Additional observations from a re-analysis of the deposited data

Results flagged for a closer look

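Among 89 sets of values that were screened for a cow far from the others of its side or group by Dixon's ratio, 7 held one, where chance gives about 1 in 20. Of the 5 cows below the threshold, *CACNA2D1* was 6.85 in replicate 6 against 5.62 to 5.95 in the others. *CTSC* was 7.68 in replicate 7 against 8.60 to 8.96. *EGR1* was 8.25 in replicate 3 against 6.73 to 7.01. *FIGN* was 7.27 in replicate 2 against 7.37 to 7.41. The vomeromodulin-like transcript LOC101908058 was 4.18 in replicate 2 against 4.96 to 5.25. *MAP3K13* was 9.24 in replicate 7 against 9.74 to 9.82. In the *FGF21* low group, *MIR2434* was 3.29 in replicate 4 against 1.84 to 2.33 in the other cows.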

How the results depend on the processing

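The count of 0 transcripts at an adjusted p under 0.05 between the sides stayed 0 under every alternative except leaving out single cows, which gave 0 to 1. For the counts with a fold change over 1.2, the methods' t-test gave 223 higher and 220 lower, Welch's test 197 and 174, a filter on mean signal above the median 196 and 104, and *FGF21* as a continuous covariate 180 and 201, while fits without 1 cow each gave 351 to 487 higher and 326 to 636 lower. The filter tests fewer transcripts by construction, but the directions did not fall alike. Higher transcripts went from 393 to 196 and lower ones from 404 to 104. Positive slopes at a p under 0.05 went from 512 to 321 and negative ones from 848 to 247. Of the 797 transcripts that met both criteria without the filter, 276 had a mean signal above the median. With *FGF21* as a covariate, the fold cut was applied to the change per doubling of *FGF21*. Between the sides it was applied to a difference over 1.37 log2 of mean *FGF21*, so these counts are not on 1 scale. For the other alternatives the cause was not tested. Sides that did not overlap numbered 289 with the filter, an alternative chosen after seeing the data. For the slope on *FGF21*, fits without 1 cow gave 0 to 2 transcripts at an adjusted p under 0.05, 442 to 605 positive and 521 to 1009 negative slopes at a p under 0.05, and the filter gave 321 and 247. In the *FGF21* low group such fits gave 0 throughout. Of 43 transcripts named from the split, the slope or the smallest p, 0 changed the sign of their difference between the sides under any alternative. Signs of slopes without 1 cow were not counted here, and *A2M*, whose slope changed sign without replicate 1, is not one of the 43. The 43 were chosen for a small p or a large fold in the same cows. That choice favours a kept sign, so the 0 is no test. Of the 183 single genes followed, list members included, 25 changed sign under at least 1 alternative. Of 390 list medians under an alternative 10 moved by more than the SD between cows. No paired analysis was possible because each cow carries its own replicate number and the sides share none. Signals near the bottom of the array carry no detection call here, which limits what the dim transcripts show.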
